A study of Homo sapiens with 12 samples.

Results

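The HOX gene clusters are 4 chromosomal groups of homeobox genes, HOXA to HOXD, and their members were taken as every gene symbol of the deposited table made of HOX, the letter of a cluster and a number. This gave 39 genes of the 35587 symbols in the table, 11 in HOXA, 10 in HOXB, 9 in HOXC and 9 in HOXD. Polyadenylated RNA was measured in 12 libraries of TeloHAEC, human aortic endothelial cells made immortal with telomerase and, per the labels, all kept at one passage. The study compared 3 lines on 2 coatings with 2 libraries in each of the 6 groups, to ask how the targeted genes bear on the response to a Notch ligand. NT is the control line, labelled wild type. In TKO cells Cas9 and a guide RNA were directed at TSPAN14, which encodes a tetraspanin partner of the Notch-cleaving protease ADAM10, and in NKO cells they were directed at the receptor gene NOTCH1. All cells spent 24 hours on plates coated with IgG, the control protein, or with the Notch ligand DLL4, each at 2.5 mg/mL as the labels state it. Each targeted gene was represented by 1 line, so that an effect of the targeting and any other difference between the lines cannot be told apart. The labels call the libraries biological replicates without naming separate cultures, and the p-values below therefore measure the spread between these libraries.

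HOX proteins are transcription factors that give cells their position along the head-to-tail axis. Within a cluster the genes stand in a row on one strand, the low-numbered (anterior) genes at the 3′ end and the high-numbered (posterior) genes at the 5′ end, and in the embryo they are switched on in that order, a property called collinearity. Polycomb proteins keep unused parts of a cluster silent and trithorax proteins keep used parts active. Adult endothelial cells retain HOX patterns that differ between vascular beds, and several members have been linked to angiogenesis or to endothelial quiescence.

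The values are TPM, transcript abundances per unit of transcript length scaled to a common total in each library, so that levels of different genes may be set side by side. TPM keep no read numbers, and the depth of the libraries is unknown. Between 0.280% and 5.61% of the TPM of a library fell on 1 pseudogene entry, KPNA2P2, and all 39 HOX genes together took 0.0192% to 0.0523%. All 12 endothelial markers examined (among them PECAM1, CDH5 and VWF) reached 1 TPM in every library, with sums of 2424 to 2875 TPM, and the 4 epithelial markers summed to at most 0.459 TPM. Of the lymphatic markers, PROX1 and FLT4 stayed below 1 TPM in every library while LYVE1 and PDPN were present, and the 4 summed to 207 to 245 TPM in NT, 51.6 to 81.3 in TKO and 328 to 604 in NKO libraries. The leukocyte sums, mostly CD68, were 43.1 to 53.7, 55.0 to 68.1 and 29.2 to 40.2 TPM in the same order, and the 10 smooth muscle and fibroblast markers summed to 17.4 to 26.5, 25 to 35.4 and 12.3 to 17.3 TPM. The part of these marker differences in the HOX differences between the lines was not tested. In bulk RNA a change in the fraction of cells that express a gene and a change in RNA per cell cannot be told apart. TSPAN14 was at 189 and 218 TPM in NT and at 127 and 148 TPM in TKO libraries on IgG, and NOTCH1 was at 15.6 to 31.5 TPM over all libraries, so both targeted genes were still transcribed.

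HOXB supplied nearly all HOX transcripts of these cells. The cluster spans 200.7 kb (chr17:48528526-48729178, minus strand, GRCh38, positions from GENCODE 29), and its genes made up 90.2% to 97.7% of all HOX TPM in each library. Of the 39 members 15 had at least 1 TPM in at least 2 libraries and were tested, among them HOXB2 to HOXB9 and HOXB13 in HOXB, and HOXA2, HOXA3, HOXA4, HOXA10 and HOXA11 in HOXA. The HOXA cluster (chromosome 7, minus strand) summed to only 9.79 to 22.3 TPM. None of the 9 HOXC genes (chr12:53938765-54056030, plus strand) and none of the 9 HOXD genes (chr2:176092891-176190907, plus strand) reached 1 TPM in any library, the highest being HOXC10 at 0.476 and HOXD1 at 0.633 TPM. HOXC5 was listed at 0 in all 12 libraries. HOXB1, the most anterior HOXB gene, was at most 0.0704 TPM. Inside the HOXA cluster HOXA5, HOXA6, HOXA7 and HOXA9 stayed at or below 0.247 TPM in every library. HOXA2 to HOXA4 before them were detected in all lines. HOXA10, HOXA11 and HOXA13 behind them were at 0.431 to 2.56 TPM in NT and NKO libraries. In TKO libraries these posterior genes were only at 0.0292 to 0.332 TPM, near the level of the silent stretch. HOXA13 lay just outside the filter, with 1.00 TPM in 1 library, and HOXA10 just inside it, at up to 1.73 TPM. Antisense and other noncoding transcripts of the clusters were not analysed here: of 25 cluster transcripts looked for, only PRAC1, PRAC2, EVX1 and EVX2 were in the table, and none of them passed the filter. The strand setting of the libraries is not given in the sources used here, so reads of a HOX gene and of an antisense transcript over it cannot be told apart.

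**Figure D1:**
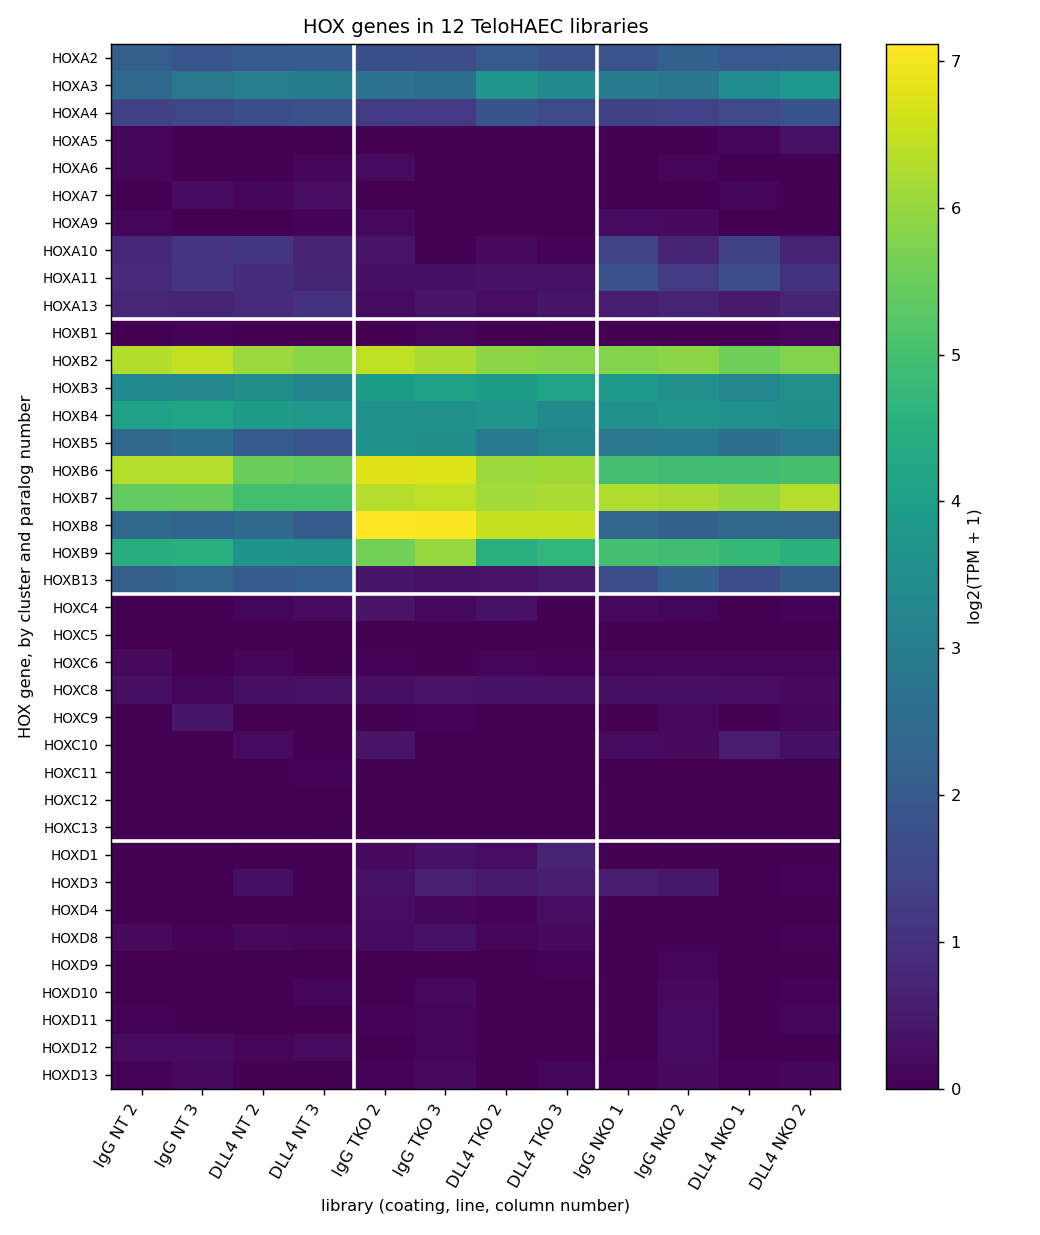
Levels of the HOX genes reported (rows, by cluster and number, white lines between clusters) in the 12 libraries (columns, by line and coating), as log2(TPM + 1). HOXB2 to HOXB9 carry most of the signal, HOXB8 is bright only in the 4 TKO libraries (89.1 to 137.8 TPM), and HOXC and HOXD stay below 1 TPM throughout.

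HOXB8 is shown first with its sequence feature because the largest difference among the members was in this gene. HOXB8, a posterior HOXB gene (chr17:48611377-48614939, minus strand), holds in the 3′ UTR of its exon 2 a site nearly complementary to the microRNA miR-196a, and pairing there is known to direct cleavage of the HOXB8 mRNA. One of the genes for this microRNA, MIR196A1, lies in the HOXB cluster itself, between HOXB9 and HOXB13. The mature sequence below is RefSeq's (GRCh38.p14, chr17:48632532-48632553, minus strand) with the seed, bases 2 to 8, in capitals. The site is from GENCODE 29 (chr17:48612770-48612791, minus strand), and its capital marks the single position that departs from the perfect complement, A18G, counted from the 5′ end of the site with the base of the perfect complement first. It matches at 21 of 22 bases.
hsa-miR-196a-5p: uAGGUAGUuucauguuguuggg
HOXB8 site: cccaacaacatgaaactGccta
The best match in any other HOX transcript had 15 of 22 bases (HOXA7), and the median over the other 38 genes was 13. The files measure polyadenylated RNA by gene symbol and hold no microRNA level, so the site is given as a description only.

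In NT cells on IgG the HOXB genes formed 2 peaks along the cluster. HOXB2, a hindbrain patterning gene in the embryo, was at 77.2 and 86.6 TPM, and HOXB6 at 79.6 and 79.2 TPM. Between these 2 genes, whose libraries overlapped, HOXB3 (9.36 and 8.98 TPM), HOXB4 (15.9 and 17.6) and HOXB5 (4.23 and 5.01) were lower. On the posterior side HOXB7 was at 41.4 and 42.1 TPM and HOXB9 at 20.5 and 21.1 TPM, with HOXB8 between them at 4.43 and 3.88 TPM. The most posterior gene, HOXB13, known from prostate and tail development, stands 98.4 kb beyond HOXB9 and was at 3.43 and 3.98 TPM. The order of means was HOXB2, HOXB6, HOXB7, HOXB9, HOXB4, HOXB3, HOXA3, HOXB5, HOXB8 and HOXB13. Neighbours from HOXA3 to HOXB13 in that order had overlapping libraries, as had HOXB2 and HOXB6, and the other neighbours did not overlap. Exons of HOXB3 share 7.9% of their bases with HOXB4 and HOXB6, and those of HOXB6 share 16.6% with HOXB3, so the split of reads between these genes is uncertain. The GENCODE model of HOXB7 spans HOXB8 and HOXB9 without sharing exon bases with them.

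**Figure D2:**
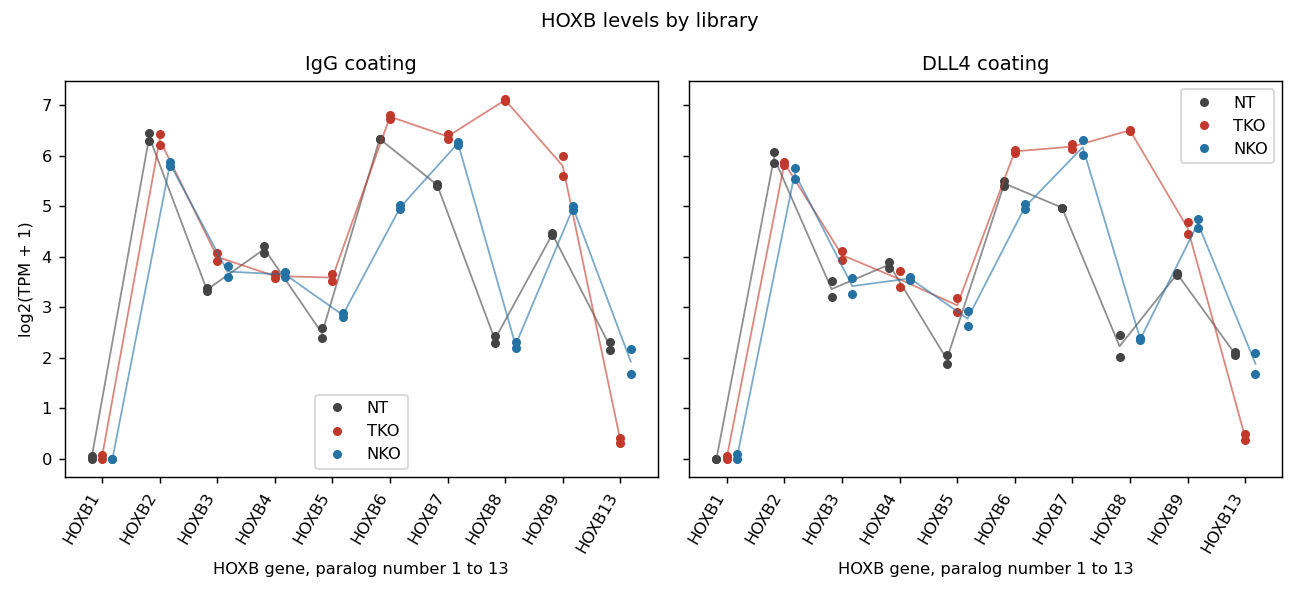
Levels of the HOXB genes in order of their number, as log2(TPM + 1), on IgG (left) and DLL4 (right). Points are single libraries and lines join the means of the 2 libraries of a group; at HOXB8 the TKO libraries stand far above the others, at HOXB13 they stand below them, and at HOXB6 the NKO libraries are lowest.

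TKO and NT cells on IgG differed most at the posterior end of HOXB. HOXB5 to HOXB9 and HOXB3 were higher in TKO cells, HOXB8 by far the most, while HOXB13 and HOXB4 were lower and HOXB2 did not pass the test. Of the 15 genes tested 6 were higher and 2 lower by limma with Benjamini-Hochberg adjustment, beside 15.2% and 12.4% of all 13299 genes tested. The median difference over the 15 was -0.05, against 0.04 over all genes. HOXB13, HOXA10 and HOXA11 passed the filter only through NT and NKO libraries.

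HOXB8 was at 137.8 and 134 TPM in the 2 TKO libraries on IgG and at 4.43 and 3.88 TPM in the NT libraries, a 32.7-fold difference of means (log2 difference 4.73 ± 0.14 SE, limma adjusted p = 5.4e-09). On DLL4 it was at 89.7 and 89.1 TPM in TKO and at 4.45 and 3.02 TPM in NT libraries (23.9-fold, 4.27 ± 0.14, adjusted p = 1.0e-08). All 4 TKO libraries thus stood above all 8 others, the highest of which held 4.45 TPM. Among all genes tested the difference ranked 11 from the top on IgG and 18 on DLL4. From a minor HOXB transcript in NT cells HOXB8 became the most abundant HOX transcript in TKO cells on both coatings.

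HOXB13, which passed the filter only through NT and NKO libraries, went the other way. It was at 0.332 and 0.250 TPM in TKO and at 3.43 and 3.98 TPM in NT libraries on IgG, 12.7-fold lower (-1.86 ± 0.21 on the log2(TPM + 1) scale, which understates changes of low genes, adjusted p = 8.4e-05). On DLL4 the TKO libraries held 0.295 and 0.402 TPM and the NT libraries 3.15 and 3.34 TPM, 9.31-fold lower (-1.65 ± 0.21, adjusted p = 0.00016). No library of TKO overlapped one of NT, which with 2 libraries in each group adds no support to the calls.

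The genes on either side of HOXB8 were also higher in TKO cells, by smaller steps. HOXB9, the next posterior gene, was at 47.2 and 62.8 TPM in TKO against 20.5 and 21.1 in NT libraries on IgG (1.35 ± 0.13, adjusted p = 3.4e-05). HOXB7 was at 79.3 and 85.1 TPM against 41.4 and 42.1 (0.96 ± 0.10, adjusted p = 4.4e-05). HOXB5, known from studies of early vascular and gut development, was at 11.6 and 10.4 TPM against 4.23 and 5.01 (1.10 ± 0.16, adjusted p = 0.00045). HOXB6 differed less, at 110.9 and 105 TPM in TKO against 79.6 and 79.2 in NT libraries (0.44 ± 0.08, adjusted p = 0.0017). In each of these 4 genes both TKO libraries were above both NT libraries, which with 2 libraries in each group adds no support to the calls.

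On the anterior side the differences were small. HOXB3 was at 14.2 and 15.7 TPM in TKO against 9.36 and 8.98 TPM in NT libraries on IgG (0.65 ± 0.15, adjusted p = 0.0090). HOXB4 was at 11.6 and 10.9 TPM against 15.9 and 17.6 (-0.53 ± 0.13, adjusted p = 0.0089). Both of these calls ended without library 3 of IgG NT or without library 3 of IgG TKO: the adjusted p of HOXB3 was then 0.0565 and 0.0642, and that of HOXB4 0.0725 and 0.0553. Over all alternatives tried their adjusted p ran from 0.0050 to 0.0642 and from 0.0053 to 0.0725. HOXB2 was at 85.1 and 72.8 TPM in TKO libraries and 77.2 and 86.6 in NT libraries, which overlapped (-0.05 ± 0.11, adjusted p = 0.77).

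On DLL4, 6 of the 15 genes were higher and 1 lower in TKO than in NT cells, beside 16.1% and 10.5% of all genes tested. The 1 lower was HOXB13, which passed the filter only through NT and NKO libraries. The comparison uses other libraries than the one on IgG. HOXB7 was at 69.1 and 73.6 TPM in TKO against 30.3 TPM in both NT libraries (1.21 ± 0.10), and HOXB9 at 20.9 and 24.8 against 11.8 and 11.4 TPM (0.91 ± 0.13). HOXB5 was at 6.47 and 8.03 against 3.18 and 2.69 TPM (1.06 ± 0.16), and HOXB6 at 65.6 and 67.9 against 44.0 and 41.4 TPM (0.63 ± 0.08). All 4 had a limma adjusted p of 0.00046 or lower. HOXB3 was at 14.4 and 16.4 against 10.5 and 8.19 TPM (0.67 ± 0.15, adjusted p = 0.0070), a call that ended without library 3 of DLL4 NT (adjusted p = 0.0738) or library 3 of DLL4 TKO (0.0659) in a range of 0.0035 to 0.0738 over the alternatives. HOXB4 was at 12.1 and 9.56 against 14.0 and 12.8 TPM and did not pass the test (-0.29 ± 0.13, adjusted p = 0.12).

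**Figure D3:**
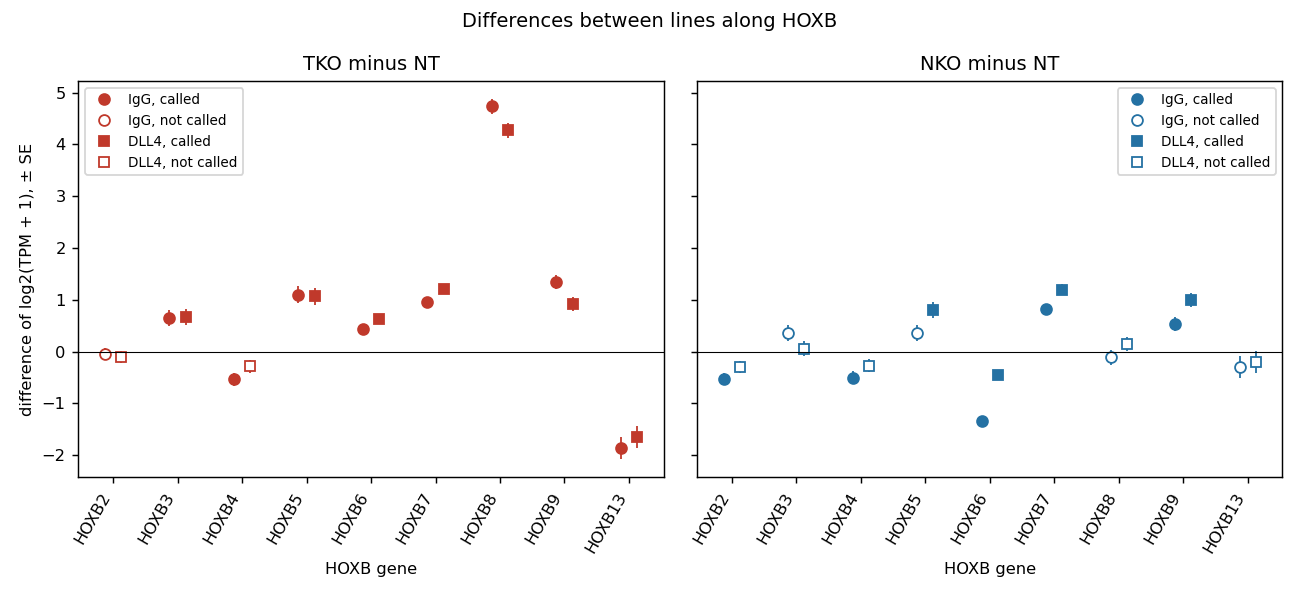
Differences of log2(TPM + 1) along HOXB, TKO minus NT (left) and NKO minus NT (right), with standard errors of the fit; circles are IgG, squares DLL4, and filled symbols passed the test. HOXB8 in TKO stands at 4.73 and 4.27 and HOXB13 at -1.86 and -1.65, while in NKO the lowest point is HOXB6 on IgG at -1.35.

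Added over the cluster, HOXB transcripts made 262.3 ± 8.73 TPM (SD, n = 2) in NT and 498 ± 0.41 TPM in TKO cells on IgG. Without HOXB8 the sums were 258 ± 9.11 and 362 ± 2.16 TPM, so the other genes also contributed. HOXB8 was 27.3% ± 0.49 of the HOXB sum in TKO cells on IgG and 26.2% ± 0.61 on DLL4, against 1.59% ± 0.20 and 2.08% ± 0.43 in NT cells. In NKO cells the sum was 228 ± 1.61 TPM, with HOXB8 at 1.65% ± 0.12. The ratio of HOXB6 to HOXB7 separated the lines within each coating. On IgG NT cells had 1.90 ± 0.03, TKO cells 1.32 ± 0.11 and NKO cells 0.408 ± 0.003. On DLL4 it was 1.41 ± 0.06, 0.936 ± 0.019 and 0.436 ± 0.045 in the same order. Across coatings NT and TKO overlapped, with 1.45 and 1.365 in NT libraries on DLL4 and 1.40 and 1.24 in TKO libraries on IgG. For such a sum or ratio the smallest two-sided p of an exact permutation test is 0.333 with groups of 2, and no p is given.

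**Figure D4:**
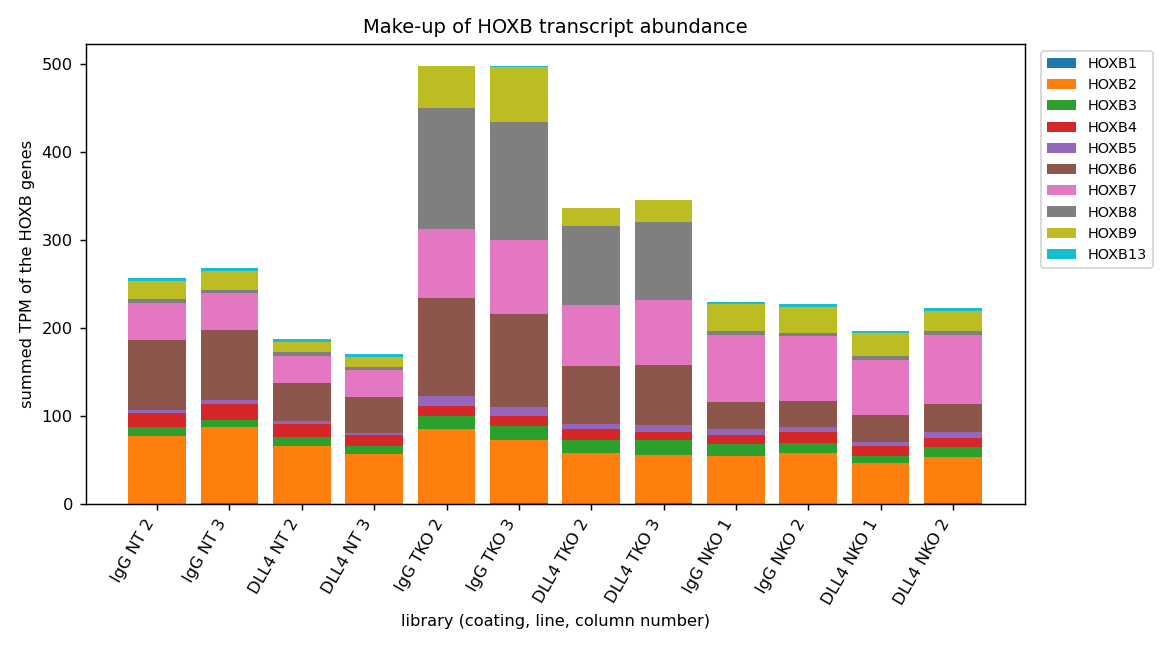
Summed TPM of the HOXB genes in each library, stacked by gene from HOXB1 at the bottom to HOXB13 at the top. The TKO bars on IgG reach 497 and 498 TPM with a broad HOXB8 layer, and in the NKO bars the HOXB6 layer is thinner than the HOXB7 layer.

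NKO cells had another HOXB pattern. Against NT on IgG, HOXB6, HOXB2 and HOXB4 were lower and HOXB7 and HOXB9 higher, which makes 2 higher and 3 lower of 15, beside 4.92% and 5.74% of all genes tested. These comparisons share the NT libraries with those of TKO cells and are given side by side only. HOXB6 was at 31.3 and 29.8 TPM in NKO and at 79.6 and 79.2 TPM in NT libraries, 2.60-fold lower (-1.35 ± 0.08, adjusted p = 2.0e-06), where TKO libraries held 110.9 and 105 TPM. HOXB7, its neighbour 2.2 kb away, was at 76.3 and 73.4 TPM against 41.4 and 42.1 in NT libraries (0.83 ± 0.10, adjusted p = 0.00037), near the TKO values of 79.3 and 85.1 TPM. In neither gene did NKO and NT libraries overlap, which with 2 libraries in each group adds no support to the calls. HOXB8 was at 3.99 and 3.55 TPM in NKO libraries and did not pass the test against NT (-0.11 ± 0.14, adjusted p = 0.65; 95% interval of the difference -0.42 to 0.20), and HOXB13 was at 2.22 and 3.5 TPM (-0.30 ± 0.21, adjusted p = 0.39).

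The other 3 calls of NKO cells on IgG did not hold when single libraries were left out. HOXB2 was at 54.3 and 57.9 TPM against 77.2 and 86.6 in NT libraries (-0.54 ± 0.11, adjusted p = 0.012), a call that ended without library 3 of IgG NT (0.112) or library 1 of IgG NKO (0.0809) in a range of 0.0076 to 0.112. HOXB4 was at 11.1 and 12.01 TPM against 15.9 and 17.6 (-0.50 ± 0.13, adjusted p = 0.027), and its call ended without either IgG NT library or library 1 of IgG NKO (0.0696, 0.179 and 0.134, range 0.0124 to 0.179). HOXB9 was at 31.1 and 29.5 TPM against 20.5 and 21.1 (0.52 ± 0.13, adjusted p = 0.031), and its call ended without any 1 of the 4 libraries compared (0.0609 to 0.146, range 0.0123 to 0.146). In these 3 genes the libraries of the lines did not overlap, which with 2 libraries in each group adds no support to the calls.

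On DLL4, 4 of the 15 genes were higher and 1 lower in NKO than in NT cells, beside 11.4% and 9.31% of all genes tested. HOXB7 was at 63.7 and 78.6 TPM against 30.3 in both NT libraries (1.20 ± 0.10, adjusted p = 1.7e-05), and HOXB9 at 25.7 and 22.9 against 11.8 and 11.4 TPM (1.00 ± 0.13, adjusted p = 0.00047). HOXB5 was at 5.18 and 6.58 against 3.18 and 2.69 TPM (0.80 ± 0.16, adjusted p = 0.0052). HOXB6 was lower, at 29.8 and 31.8 against 44.0 and 41.4 TPM (-0.46 ± 0.08, adjusted p = 0.0021). The difference in HOXB6 between NKO and NT cells was thus smaller on DLL4 than on IgG, and the test of that change is given with the ligand responses.

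The edited lines compared with each other set HOXB8, HOXB6 and HOXB13 apart. On IgG 5 of 15 genes were higher and 2 lower in TKO than in NKO cells, beside 10.9% and 8.75% of all genes tested. On DLL4 3 were higher and 3 lower, beside 12.9% and 9.91%. HOXB13 and HOXA11, lower on both coatings, passed the filter only through NT and NKO libraries. HOXB8 was 36.1-fold higher in TKO than in NKO cells on IgG (4.85 ± 0.14) and 21.5-fold on DLL4 (4.13 ± 0.14). HOXB6 was 3.54-fold higher on IgG (1.79 ± 0.08) and 2.17-fold on DLL4 (1.09 ± 0.08), and HOXB13 9.83-fold and 7.83-fold lower (-1.56 ± 0.21 and -1.45 ± 0.21). The limma adjusted p of these 6 differences was 0.00060 or lower. HOXB9 (0.83 ± 0.13), HOXB5 (0.74 ± 0.16) and HOXB2 (0.48 ± 0.11) were also higher in TKO cells on IgG. A fit of only the libraries compared ended the calls of HOXB9 (adjusted p = 0.0658, range 0.00084 to 0.0658) and HOXB5 (0.0777, range 0.0056 to 0.0777), and the replicate block also ended that of HOXB5 (0.0535). The HOXB2 call ended without library 2 of IgG TKO (adjusted p = 0.0883) or library 1 of IgG NKO (0.069), in a range of 0.0077 to 0.0947. On DLL4 HOXB3 was higher (0.61 ± 0.15), a call that ended without library 3 of DLL4 TKO (0.114) or library 1 of DLL4 NKO (0.129), in a range of 0.0046 to 0.129. HOXB7 did not pass the test between the edited lines on either coating (0.13 ± 0.10 and 0.01 ± 0.10, adjusted p = 0.39 and 0.95), with 95% intervals of the difference of -0.09 to 0.35 and -0.21 to 0.23.

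The ligand lowered part of HOXB in NT cells. HOXB6, HOXB9, HOXB7, HOXB2 and HOXB5 fell on DLL4 and no HOX gene rose: 5 of 15 fell and 0 rose by limma, with 6 at an unadjusted p under 0.05 in either direction, beside 8.34% of all genes tested that fell and 7.68% that rose. HOXB6 went from 79.6 and 79.2 TPM on IgG to 44.0 and 41.4 TPM on DLL4 (-0.88 ± 0.08, adjusted p = 3.9e-05). HOXB9 went from 20.5 and 21.1 to 11.8 and 11.4 TPM (-0.78 ± 0.13, adjusted p = 0.0031). The libraries of the coatings did not overlap in either gene, which with 2 libraries in each group adds no support to the calls. HOXB7 went from 41.4 and 42.1 to 30.3 TPM in both libraries (-0.45 ± 0.10, adjusted p = 0.012), HOXB2 from 77.2 and 86.6 to 65.7 and 56.7 TPM (-0.42 ± 0.11, adjusted p = 0.031) and HOXB5 from 4.23 and 5.01 to 3.18 and 2.69 TPM (-0.51 ± 0.16, adjusted p = 0.0497). These 3 calls did not hold when single libraries were left out. That of HOXB7 ended without any 1 of the 4 NT libraries. That of HOXB2 ended without library 2 or 3 of IgG NT or library 3 of DLL4 NT. That of HOXB5, close to the threshold, ended without any 1 of the 12 libraries. Without the filter the limma adjusted p of HOXB2 and HOXB5 was 0.0828 and 0.112. In a fit of only the NT libraries it was 0.0926 and 0.108. HOXB3 (0.01 ± 0.15), HOXB4 (-0.31 ± 0.13) and HOXB8 (-0.14 ± 0.14) did not pass the test. The HOXB sum was 178 ± 12.1 TPM on DLL4, against 262.3 ± 8.73 on IgG.

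In TKO cells 4 genes fell on DLL4 and 1 rose, beside 2.41% and 4.11% of all genes tested. HOXB9 went from 47.2 and 62.8 TPM on IgG to 20.9 and 24.8 on DLL4 (-1.22 ± 0.13, adjusted p = 0.00039), a call that ended in a fit of only the TKO libraries (0.0722, range 0.00012 to 0.0722). HOXB6 went from 110.9 and 105 to 65.6 and 67.9 TPM (-0.69 ± 0.08, adjusted p = 0.00047). HOXB8 went from 137.8 and 134 to 89.7 and 89.1 TPM (-0.60 ± 0.14, adjusted p = 0.029), with no overlap between the coatings. That call ended without any 1 of the 4 TKO libraries (0.109 to 0.172, range 0.0078 to 0.172). HOXB2 went from 85.1 and 72.8 to 57.9 and 55.4 TPM (-0.47 ± 0.11, adjusted p = 0.034), a call that ended without library 2 of IgG TKO or either DLL4 TKO library (0.165, 0.135 and 0.206, range 0.0182 to 0.206). HOXB5 (-0.55 ± 0.16, adjusted p = 0.068) and HOXB7 (-0.20 ± 0.10, adjusted p = 0.30) did not pass the test. The HOXB sum was 341 ± 6.25 TPM on DLL4, against 498 ± 0.41 on IgG.

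In NKO cells 0 of the 15 genes rose or fell on DLL4 by limma, with 2 at an unadjusted p under 0.05 (HOXA3 and HOXB9), beside 0.511% of all genes tested that rose and 0.271% that fell. HOXB6 was at 31.3 and 29.8 TPM on IgG and 29.8 and 31.8 TPM on DLL4, with a 95% interval of the log2 change from -0.16 to 0.18 around 0.01. HOXB9 was at 31.1 and 29.5 TPM on IgG and 25.7 and 22.9 TPM on DLL4 (-0.31 ± 0.13, adjusted p = 0.51), and HOXB7 overlapped between the coatings. The HOXB sum was 209 ± 18.4 TPM on DLL4 against 228 ± 1.61 TPM on IgG.

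The difference between the responses was tested directly. DLL4 changed HOXB6 differently in NKO and NT cells, by 0.89 ± 0.11 (limma adjusted p = 0.0037, 95% interval 0.65 to 1.13), and the adjusted p ran from 0.0023 to 0.0274 over all alternatives. HOXB6 was the 1 member of 15 called in that test, beside 0.887% of all genes tested. HOXB9 (0.48 ± 0.19, adjusted p = 0.32) and HOXB7 (0.37 ± 0.14, adjusted p = 0.29) had positive values that did not pass it. Between TKO and NT cells 0 of 15 responses differed by limma (2 at an unadjusted p under 0.05), beside 0.526% of all genes tested. The values there were 0.19 ± 0.11 for HOXB6, -0.46 ± 0.20 for HOXB8 (adjusted p = 0.29) and -0.44 ± 0.19 for HOXB9 (adjusted p = 0.30).

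**Figure D5:**
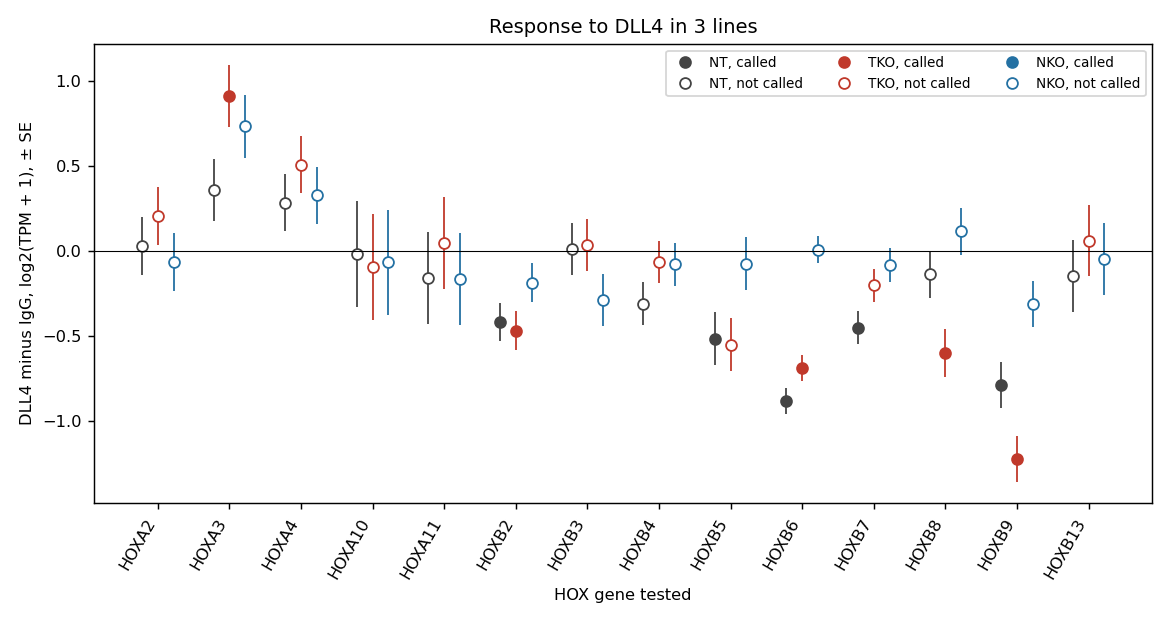
Change on DLL4 against IgG for the tested HOX genes reported, in log2(TPM + 1) with standard errors of the fit, in NT, TKO and NKO cells; filled points passed the test. HOXB6 has NT at -0.88, TKO at -0.69 and NKO at 0.01, and the single filled point above 0 is HOXA3 in TKO cells at 0.91.

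In HOXA the anterior genes were the more abundant, and few comparisons of them passed the test. HOXA3, which patterns the pharyngeal arches and has been linked to endothelial migration, was the highest. It was at 4.43 and 6.25 TPM in NT, 5.52 and 4.91 in TKO and 6.77 and 5.89 in NKO libraries on IgG, where NT overlapped each edited line and NKO stood above TKO. On DLL4 it was at 7.22 and 6.90 TPM in NT, 12.2 and 9.40 in TKO and 9.76 and 12.8 in NKO libraries, above the IgG libraries in every line. HOXA3 rose on DLL4 in TKO cells (0.91 ± 0.18, adjusted p = 0.013), a call that ended without library 3 of IgG TKO (0.0824) or library 2 of DLL4 TKO (0.133), in a range of 0.0081 to 0.133. In NT (0.36 ± 0.18, adjusted p = 0.22) and NKO cells (0.73 ± 0.18, adjusted p = 0.13) the change did not pass the test, and neither did the differences between the responses (adjusted p = 0.33 for TKO and 0.60 for NKO against NT). HOXA3 was higher in NKO than in NT cells on DLL4 (0.59 ± 0.18, adjusted p = 0.041), a call that ended without either DLL4 NT library or library 2 of DLL4 NKO (0.116, 0.169 and 0.246, range 0.0334 to 0.246).

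HOXA2 lay between 2.23 and 3.55 TPM in all 12 libraries and HOXA4 between 1.29 and 2.60 TPM, and neither passed a test in any of the 11 comparisons. The posterior genes HOXA10 and HOXA11, known from limb and uterine development, were low in TKO cells. Both passed the filter only through NT and NKO libraries. HOXA11 was at 0.226 and 0.221 TPM in TKO against 2.56 and 1.31 TPM in NKO libraries on IgG, 8.67-fold lower (-1.23 ± 0.27, adjusted p = 0.0089), and this call ended without library 1 of IgG NKO (0.0689; range 0.0039 to 0.072). On DLL4 HOXA11 was 6.15-fold lower in TKO than in NKO cells (-1.02 ± 0.27, adjusted p = 0.020), a call that ended without either DLL4 TKO library or library 1 of DLL4 NKO (0.0834, 0.0906 and 0.17, range 0.0087 to 0.17). In NT libraries HOXA11 was between 0.667 and 1.18 TPM, and it did not pass the test against TKO on IgG (-0.69 ± 0.27, adjusted p = 0.082) or DLL4 (-0.49 ± 0.27, adjusted p = 0.23). HOXA10 was at 0.0292 to 0.309 TPM in the 4 TKO libraries and at 0.608 to 1.73 TPM in the other 8, which did not overlap, and it passed no test (-0.73 ± 0.31 on IgG and -0.81 ± 0.31 on DLL4 against NT, adjusted p = 0.11 and 0.082). HOXA13, outside the filter, was at most 0.332 TPM in TKO libraries and at least 0.431 TPM in the others.

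Promoter windows of RefSeq (GRCh38.p14, 250 bases before to 50 after a start) were matched for 19 of the 39 genes, 26 windows in all, and 5 of these genes were among those tested. They were searched on both strands for TGGGAA, the core bound by RBPJ, the DNA-binding partner of Notch, for TGATNNAT, bound by HOX with PBX proteins, and for TGACAG, bound by MEIS and PKNOX proteins. Among HOXB genes only HOXB1 had a window, so none of the HOXB genes tested was searched. TGGGAA stood in 1 of the 26 windows, TGATNNAT in 3 and TGACAG in 4. Among all 34943 promoter windows the letters stood in 24.0%, 7.42% and 15.8%. The 2 windows printed are those of HOXA3, which rose on DLL4 in TKO cells, and of HOXA4, the gene of the 1 window with TGGGAA, both on the minus strand (chr7:27152534-27152833 and chr7:27130708-27131007). Capitals mark the motif letters.
HOXA3: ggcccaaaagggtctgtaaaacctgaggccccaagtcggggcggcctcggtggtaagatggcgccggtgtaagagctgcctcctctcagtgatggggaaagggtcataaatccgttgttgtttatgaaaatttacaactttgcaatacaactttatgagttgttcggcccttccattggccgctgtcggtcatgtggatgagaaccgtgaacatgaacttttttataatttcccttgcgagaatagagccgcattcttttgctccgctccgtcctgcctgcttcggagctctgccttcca
HOXA4: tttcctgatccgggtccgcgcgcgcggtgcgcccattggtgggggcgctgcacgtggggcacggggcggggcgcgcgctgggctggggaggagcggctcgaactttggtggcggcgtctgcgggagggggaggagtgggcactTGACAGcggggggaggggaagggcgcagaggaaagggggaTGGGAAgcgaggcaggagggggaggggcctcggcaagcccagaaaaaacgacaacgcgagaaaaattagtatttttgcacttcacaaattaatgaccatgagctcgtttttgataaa
The HOXA4 window holds TGACAG and TGGGAA once each, and the window shown for HOXA3, like the 6 other HOXA3 windows, holds none of the 3 motifs. A match in this window is a description of letters and not a binding site, and its absence says nothing about the rest of the locus.

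Genes that act with or upon the HOX clusters were counted from lists. Of 9 TALE homeobox genes, whose PBX, MEIS and PKNOX proteins bind DNA together with HOX proteins, 6 were tested. On DLL4 1 rose in NT cells and 1 in TKO cells, beside 7.68% and 4.11% of all genes tested. It was MEIS2 in both, from 16.2 and 14.9 to 27.1 and 27.3 TPM in NT libraries (0.77 ± 0.10) and from 20.6 and 22.2 to 54.0 and 50.4 TPM in TKO libraries. Against NT on IgG 2 were higher in TKO cells, MEIS2 (0.44 ± 0.10) and PKNOX1 (0.44 ± 0.13), beside 15.2% of all genes. On DLL4 MEIS1 was lower in TKO (-0.49 ± 0.14) and in NKO cells (-1.05 ± 0.14) than in NT cells, and MEIS2 was higher in TKO (0.91 ± 0.10) and lower in NKO cells (-0.59 ± 0.10). The medians of the 6 on IgG were 0.33 in TKO and -0.07 in NKO cells against NT, where those of all genes were 0.04 and 0.06.

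All 31 Polycomb genes were tested. Against NT on IgG 5 were higher and 6 lower in TKO cells, and 4 were higher in NKO cells, with medians of 0.06 and 0.18, beside 15.2% higher and 12.4% lower of all genes tested in TKO cells and 4.92% and 5.74% in NKO cells. In TKO cells the histone-binding subunit RBBP7 (0.46 ± 0.07) and the PRC1 component PCGF5 (0.84 ± 0.13) were higher, and CBX2, a chromodomain subunit of PRC1, was lower, at 4.73 and 5.06 TPM against 10.3 and 10.96 in NT libraries (-0.98 ± 0.15). PCGF5 also stood higher in NKO than in NT libraries on IgG, at 16.2 and 15.2 against 9.43 and 10.2 TPM. EZH2, the histone methyltransferase of PRC2, was higher in NKO cells (0.43 ± 0.12, limma adjusted p = 0.048). Of 19 trithorax and COMPASS genes 3 were higher and 1 lower in TKO cells on IgG and 1 was lower in NKO cells, with MEN1, the menin gene, at 0.54 ± 0.09 in TKO cells.

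Retinoic acid is an inducer of HOX genes in the embryo, and 12 of 24 genes of retinoid handling and other upstream regulation were tested. ALDH1A3, an enzyme that makes retinoic acid, was at 51.2 and 62.9 TPM in TKO and 39.8 and 34.0 TPM in NKO against 18.9 and 21.8 TPM in NT libraries on IgG (1.44 ± 0.14 and 0.83 ± 0.14). CYP26B1, which degrades retinoic acid, was at 1.56 and 1.90 TPM in TKO against 0.286 and 0.321 TPM in NT libraries (1.06 ± 0.20). The receptor gene RARB, itself a retinoic acid target, rose on DLL4 in NT cells from 3.19 and 3.49 to 8.21 and 9.75 TPM (1.20 ± 0.17). In TKO cells it rose from 3.27 and 2.96 to 12.9 and 10.7 TPM (1.64 ± 0.17). On DLL4 4 of the 12 genes rose and 2 fell in NT cells, beside 7.68% and 8.34% of all genes tested. In TKO cells 2 rose and 0 fell, beside 4.11% and 2.41%, and in NKO cells 0 rose or fell, beside 0.511% and 0.271%. In all, 3 genes of the list were higher and 2 lower in TKO cells on IgG, and 2 higher and 2 lower in NKO cells, with medians of -0.07 and 0.17. The shares over all genes tested were 15.2% and 12.4% for TKO, with 4.92% and 5.74% for NKO.

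Genes around the clusters were counted in the same fit. Of the 40 nearest protein-coding genes, 5 on each side of each cluster, 34 were tested, and in TKO against NT cells 3 were higher and 4 lower on IgG and 3 higher and 4 lower on DLL4, with medians of 0.08 and -0.02. Over all genes tested 15.2% were higher and 12.4% lower on IgG, and 16.1% and 10.5% on DLL4. Nearest to HOXB, SKAP1 was at 2.73 and 3.38 TPM in TKO against 3.53 and 4.28 TPM in NT libraries on IgG, TTLL6 stayed below 1 TPM, and CALCOCO2 was at 53.2 and 57.8 against 49.8 and 47.6 TPM. COPZ2 lies 490496 bases from HOXB on the anterior side. On IgG it was at 8.83 and 4.00 TPM in TKO and 4.36 and 1.44 TPM in NKO libraries. In the NT libraries it was at 0.282 TPM and listed at 0 (2.63 ± 0.38 for TKO and 1.67 ± 0.38 for NKO against NT). COPZ2 passed the filter only through TKO and NKO libraries. Among the genes listed around HOXA, NFE2L3, 905868 bases away, was higher in TKO cells (1.19 ± 0.16). HIBADH, 325336 bases away on the other side, was lower in TKO (-0.70 ± 0.10) and in NKO cells (-0.54 ± 0.10).

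Among the 24 members outside the filter, values below 1 TPM were close to the limit of the table and are given as a description. A fit without the filter called HOXD3 higher in TKO than in NT cells on IgG (0.49 ± 0.12, adjusted p = 0.036) and than in NKO cells on DLL4 (0.50 ± 0.12, adjusted p = 0.041). In that fit HOXD1 was higher in TKO than in NT cells on DLL4 (0.48 ± 0.13, adjusted p = 0.048), and HOXA13 lower on IgG (-0.46 ± 0.12, adjusted p = 0.045) and DLL4 (-0.60 ± 0.12, adjusted p = 0.014). HOXD3 was listed at 0 in both NT libraries on IgG. Its means there were 0.408 ± 0.20 TPM in TKO and 0.426 ± 0.082 TPM in NKO cells, so it was not particular to TKO. On DLL4 HOXD1 was listed at 0 in both NT libraries and was at 0.189 and 0.633 TPM in TKO libraries. On IgG HOXD1 had means of 0.0292 TPM in NT and 0.206 ± 0.094 TPM in TKO cells. No HOXC gene was called in any comparison of that fit (lowest adjusted p = 0.12).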

How the data were processed

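Per the submitters' processing notes the authors used kallisto, edgeR and the build hg38. Not given in the sources used here are their versions, the symbols' annotation and the library strand. The deposited values are TPM per gene symbol, made by the authors, with 2 libraries in each of 6 groups. Columns of NT and TKO are numbered 2 and 3 and those of NKO 1 and 2, where the labels have 1 and 2 throughout. Column numbers serve as library names, and each column was taken as a library of its group. TPM carry no depth, so precision rests on the spread of libraries within groups. The fit pooled that spread over the 6 groups and moderated it across genes. No column lay outside the samples.

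Genes with at least 1 TPM in at least 2 libraries (13299) entered 1 limma fit (limma 3.58.1, R 4.3.3) of log2(TPM + 1). It took all 12 libraries, a mean for each group and moderation with a variance trend. The 11 contrasts were tested two-sided, and p-values were adjusted by Benjamini-Hochberg over all genes at a threshold of 0.05. Errors are standard errors of the fit for log2 values and standard deviations for TPM. Fold differences are ratios of mean TPM. The fit was tested on simulated data. The members and the other gene lists were chosen with earlier results of these data known. Values of 1 member are not reported here, though it is in the counts and sums. By the naming rule the members are described with library values for those called or averaging 5 TPM or more in any group. Up to 4 genes of smallest p in a contrast are named from each other list described here. The targeted genes, the cell type markers and the genes that lie nearest to HOXB were added beside these. A further list of 12 genes linked to HOX proteins in endothelial cells, 10 of them tested, was fitted and is not described. Positions and exon overlaps are from GENCODE 29, microRNA and promoter sequences from RefSeq GRCh38.p14. Alternatives were median-of-ratios and quantile scaling, KPNA2P2 left out, a pseudocount of 0.1, the filter dropped or set to a mean of 5 TPM, a replicate block, the variance trend dropped, fits restricted to the libraries of 1 comparison, and each library left out in turn.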

Additional observations from a re-analysis of the deposited data

Results flagged for a closer look

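HOXB6 is given here again because its response to DLL4 differed between 2 lines by the test of the difference itself. The response in NKO cells (0.01 ± 0.08 on the log2 scale) minus that in NT cells (-0.88 ± 0.08) was 0.89 ± 0.11, with a limma adjusted p of 0.0037 over all genes tested. HOXB6 was at 79.6 and 79.2 TPM on IgG and at 44.0 and 41.4 TPM on DLL4 in NT libraries, and at 31.3 and 29.8 TPM on IgG and at 29.8 and 31.8 TPM on DLL4 in NKO libraries. On DLL4 the lines thus stood closer than on IgG, and the NKO libraries were below the NT libraries on both coatings.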

How the results depend on the processing

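No call of a HOX gene changed direction under any alternative. Changes that were not called were not assessed for direction unless an alternative called them. Of 49 calls of single HOX genes, 28 held in every alternative that included the gene. Another 18 ended without at least 1 single library, and 3 ended under other settings only. HOXB13, whose calls are among the 28, did not enter the fit that needed a mean of 5 TPM. The count of HOX genes called went from 5 to 3 in NT cells on DLL4 and from 5 to 2 in TKO cells on DLL4, both without a filter and in a fit of only the libraries compared. For NKO against NT on IgG it went from 5 to 3 without a filter and to 2 in the fit of only the libraries compared, and for TKO against NKO on IgG from 7 to 3 in that fit. For TKO against NKO on DLL4 it went from 6 to 3 when genes needed a mean of 5 TPM and to 3 with the replicate block. Fewer genes or libraries enter several of these fits, and the cause was not tested further. Leaving out each library in turn gave counts of 2 to 4 (NT on DLL4), 2 to 5 (TKO on DLL4) and 0 to 0 (NKO on DLL4). It gave 6 to 8 for TKO against NT on either coating, 2 to 5 and 4 to 5 for NKO against NT on IgG and DLL4, and 5 to 8 and 3 to 7 for TKO against NKO. The differences of responses gave 0 to 0 (TKO) and 1 to 1 (NKO). Deviations of same-numbered libraries correlated at -0.0003 (NT), 0.0165 (TKO) and 0.279 (NKO). NKO libraries of 1 number thus deviated together, but not those of all 3 lines, so the column numbers were not taken as pairing. The replicate block changed no other count by over 1.5 times. No scaling moved the median of all genes by over 0.1. The unknown depth limits what can be said of genes below 1 TPM.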
